A study of Mus musculus with 22 samples.

Results

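Itpr1, Rora, Pcp2, Calb1, Car8, Foxp2 and Slc1a6 are 7 genes that mark Purkinje cells, the output neurons of the cerebellar cortex. They were chosen by name for that role, with earlier results of these data known. They were placed at their spans in the GENCODE M21 annotation of mm10, out of 21728 protein-coding genes on chromosomes 1 to 19 and X. For 5-methylcytosine (5mC), each gene was represented by every 100 kb bin it overlapped, which came to 25 of 26327 bins. For 5-hydroxymethylcytosine (5hmC), it was represented by every 1 Mb bin it overlapped, which came to 9 of 2641 bins. The surroundings were the bins within 500 kb on either side, 10 of 100 kb for each gene. Every level is a fraction, the share of cytosines of CpG sites carrying the mark as the authors computed it per bin, and the depth behind it is unknown.

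The tissues were whole cortex (the cerebral cortex without the hippocampus), whole olfactory bulb and whole cerebellum of female C57BL/6 mice at 8 weeks of age, with independent mice for the replicates of a tissue. Tissues of the same mouse may be among the groups compared. The 5hmC level was read by TAB-seq, which leaves only 5hmC as C, in 3 libraries per tissue. The 5mC level was read by oxBS-seq, which leaves only 5mC as C, in 3 libraries of cortex, 2 of the olfactory bulb and 2 of the cerebellum. RNA levels were not analysed here, so whether these genes mark Purkinje cells in these very samples was not checked.

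Purkinje cells receive the parallel fibres of the granule neurons and send the only output of the cerebellar cortex, and they are far outnumbered by granule neurons. Both marks sit mainly on CpG sites. In neurons, 5hmC is made from 5mC by TET enzymes and is known to build up over the bodies of transcribed genes, while the 5mC of a gene body is often lower in the cells that transcribe it. A level in whole tissue averages over all its cell types, so a mark present in fewer cells and a lower level per cell cannot be told apart here.

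The genes fall into 3 roles. Itpr1 (the receptor that releases calcium from the endoplasmic reticulum), Car8 (a carbonic anhydrase relative without enzyme activity that binds this receptor) and Calb1 (the calcium buffer calbindin) belong to calcium signalling. Rora (a nuclear receptor that Purkinje cells need to mature) and Foxp2 (a forkhead transcription factor) act on transcription. Pcp2 (a modulator of G proteins, also called L7) and Slc1a6 (the glutamate transporter EAAT4) act at the membrane. Several are not limited to Purkinje cells: Foxp2, Rora and Calb1 are also used by groups of neurons in the forebrain.

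Size set how much of each bin was the gene itself. Rora covered 734 kb (chr9:68653786-69388246, plus strand) over 8 bins, Foxp2 541 kb (chr6:14901349-15441977, plus strand) over 6 bins, and Itpr1 338 kb (chr6:108213096-108551109, plus strand) over 4 bins. Car8 (chr4:8143362-8239041, minus strand), Calb1 (chr4:15881264-15908064, plus strand) and Slc1a6 (chr10:78780496-78814765, plus strand) lay on 2 bins each, with lengths of 95.7, 26.8 and 34.3 kb. Pcp2 (chr8:3623371-3625545, minus strand) was 2175 bases long and took up 2.175% of its single bin, which it shared with 9 other protein-coding genes. Slc1a6 took up 19.5% and 14.8% of its 2 bins, each shared with 2 other protein-coding genes, and Calb1 took up 18.7% and 8.06%. The level given for Pcp2 is therefore the level of its neighbourhood, and those of Slc1a6 and Calb1 largely are too. At 1 Mb the same holds for more of them, since the bins of Pcp2 and Slc1a6 held 24 and 23 other protein-coding genes, and the bins of the remaining genes held between 2 and 5. The gene took up 0.22% of its 1 Mb bin in Pcp2, 2.68% in Calb1, 3.43% in Slc1a6 and 9.57% in Car8. In Foxp2, Itpr1 and Rora it took up 27.0%, 33.8% and 36.7%. A 5hmC level given for a gene is that of its bins.

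The promoters show how unlike these genes are in CpG sites, the letters on which both marks were measured. RefSeq windows (GRCm38.p6) from 250 bases before to 50 bases after the start were at hand for Pcp2, Rora and Slc1a6. The windows of Pcp2 (chr8:3625498-3625797, minus strand) and Rora (chr9:68653536-68653835, plus strand) are printed 5′ to 3′ with each CpG site in capitals.
Pcp2: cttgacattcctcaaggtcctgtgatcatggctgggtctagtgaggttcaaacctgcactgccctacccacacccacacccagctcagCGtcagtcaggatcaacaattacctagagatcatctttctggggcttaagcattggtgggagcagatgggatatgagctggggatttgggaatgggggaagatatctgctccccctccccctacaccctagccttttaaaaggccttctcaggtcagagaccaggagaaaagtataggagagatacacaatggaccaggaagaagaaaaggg
Rora: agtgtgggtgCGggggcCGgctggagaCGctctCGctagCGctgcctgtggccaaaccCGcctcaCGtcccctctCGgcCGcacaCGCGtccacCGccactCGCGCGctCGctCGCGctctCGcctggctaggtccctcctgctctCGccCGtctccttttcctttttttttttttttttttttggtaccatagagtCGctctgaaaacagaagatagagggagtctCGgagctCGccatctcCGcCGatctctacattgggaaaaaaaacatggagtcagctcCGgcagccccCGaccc
The window of Pcp2 held 1 CpG site, and fewer were found in 5.43% of 32851 such windows of the genome. The window of Rora held 28 and that of Slc1a6 (chr10:78780246-78780545, plus strand) 32, against a median of 7. The letters AGGTCA, the core of the element that the protein of Rora is known to bind, were searched on both strands. They occurred once in the window of Pcp2, as aggtca near its start site, and in neither of the windows of Rora and Slc1a6. Of all windows, 16.3% held them.

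Whole libraries differed in level, which every comparison of the 7 genes inherits. Mean 5mC over all bins kept lay between 0.660 and 0.687 in cortex, between 0.705 and 0.709 in the olfactory bulb and between 0.723 and 0.739 in the cerebellum, with replicate 3 of cortex the lowest. Mean 5hmC lay between 0.155 and 0.173 in cortex, between 0.142 and 0.150 in the olfactory bulb and between 0.0938 and 0.0969 in the cerebellum. On the scale of log2(level/(1 - level)), used for the tests, the median over all genes shifted by 0.34 in 5mC and the median over all bins by -1.04 in 5hmC from cortex to cerebellum. Changes are therefore also given with each library centred on its own median. The tissue labels were set beside lists of marker genes. These lists were chosen with earlier results of these data known, so they are no independent check of the labels. In 12 of 12 granule neuron genes, 5mC relative to the flanks was lower in cerebellum than in cortex, beside 11.2% of all genes. In 7 of 10 genes of olfactory bulb interneurons it was lower in olfactory bulb than in cortex, beside 2.57% of all genes. Of these, Dlx1 and Dlx2 lie on the same bin and count as 1 measurement (6 of 9).

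Across the 7 genes, 5mC was higher in cerebellum than in cortex for 6, and Rora was the exception (limma on all 21691 genes with a level, Benjamini-Hochberg adjusted p under 0.05). Of all genes, 55.1% passed as higher and 4.27% as lower in this comparison, so a majority of higher genes was the general state of the cerebellum. None of the 7 was lower, also at an unadjusted p under 0.05. The median difference of the 7 was 0.50 on the log2 ratio scale, and that of all genes was 0.29. With libraries centred, 2 of the 7 passed as higher (Itpr1 and Foxp2) and 1 as lower (Rora), beside 15.3% and 26.5% of all genes. At the level of bins, 17 of 25 were higher and 1 lower, beside 71.9% and 4.44% of all bins.

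Against olfactory bulb, Itpr1 and Foxp2 were higher in cerebellum by the same test (18.0% of all genes) and none of the 7 was lower (7.69%). At an unadjusted p under 0.05, Rora was lower as well. Of the 25 bins, 9 were higher and 2 lower, beside 35.3% and 7.69% of all bins. Between olfactory bulb and cortex, Itpr1, Pcp2, Calb1 and Car8 were higher in olfactory bulb (26.4%) and none of the 7 was lower (0.867%), also at an unadjusted p under 0.05. Of the bins, 12 were higher and 0 lower, beside 37.6% and 2.18% of all bins, and the unadjusted count was 18 higher and 0 lower. With libraries centred, none of the 7 genes passed between olfactory bulb and cortex in either direction, beside 3.56% of all genes higher and 4.73% lower. Without olfactory bulb replicate 1 none of the 4 calls between these tissues passed, and without olfactory bulb replicate 2 that of Pcp2 alone did, while that of Itpr1 was lost without cortex replicate 1 too.

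**Figure D1:**
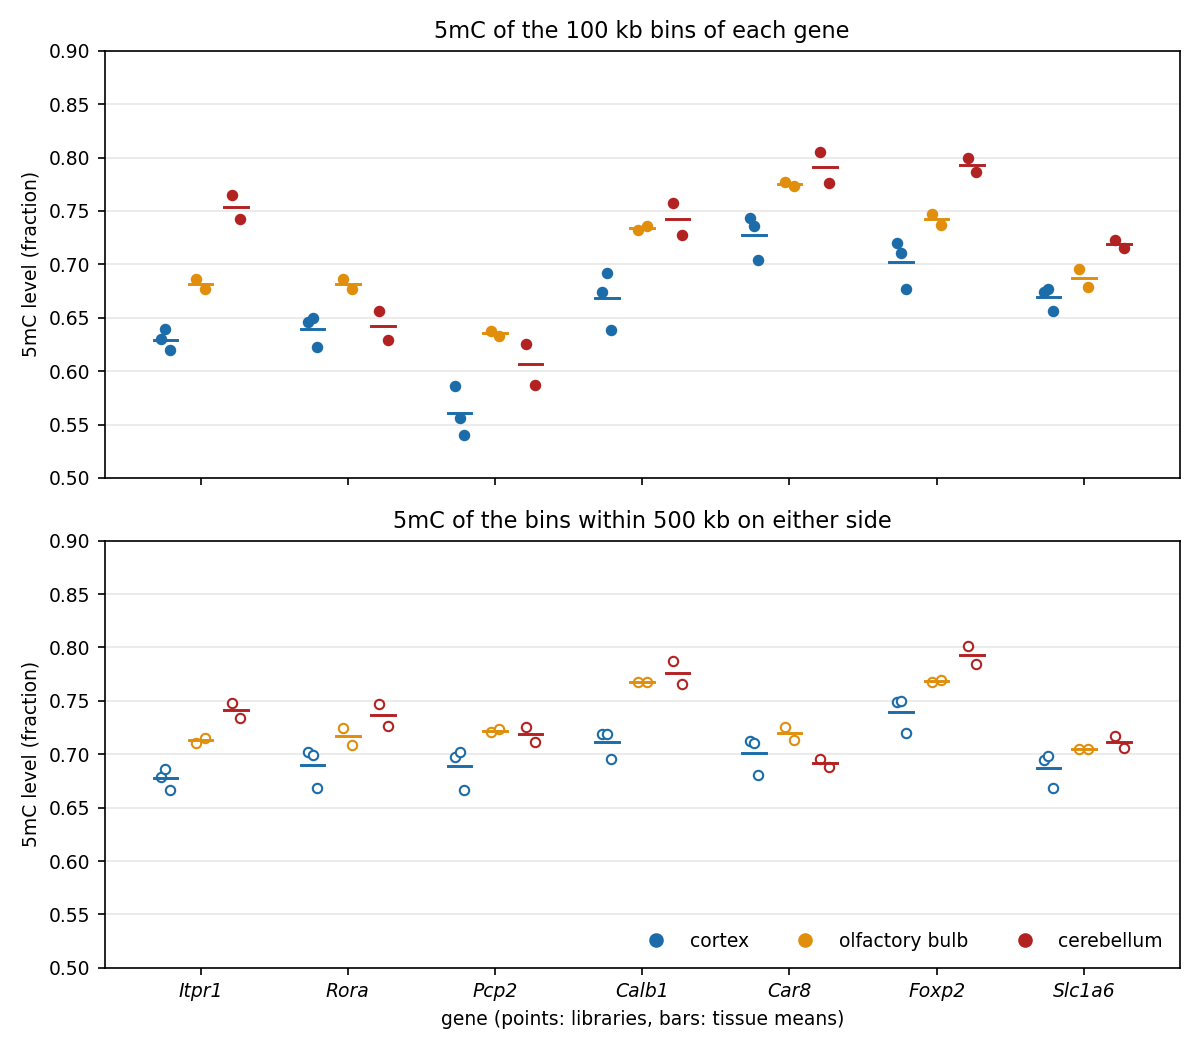
5mC level (fraction) of the 100 kb bins of each gene (top, filled points) and of the bins within 500 kb on either side (bottom, open points), 1 point per library and a bar at the mean of each tissue. The axis starts at 0.5. In Itpr1 and Foxp2 the cerebellum lies above both other tissues, while in Rora the libraries of cerebellum (0.629 and 0.656) lie among those of cortex (0.623 to 0.650).

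Itpr1 gained the most. Its 5mC was 0.630, 0.639 and 0.619 in the 3 libraries of cortex, 0.686 and 0.677 in olfactory bulb, and 0.765 and 0.742 in cerebellum. The 3 tissues did not overlap, in the order cortex, olfactory bulb, cerebellum. The difference between cerebellum and cortex was 0.85 ± 0.11 (SE) on the log2 ratio scale (limma, adjusted p = 8.13e-09), and 97.9% of all genes lay below it in their difference in level. With libraries centred it was 0.51 (adjusted p = 2.37e-04). The difference from olfactory bulb was 0.52 ± 0.12 (adjusted p = 0.00113) and no longer passed without cerebellum replicate 1 (adjusted p = 0.0634). All 4 bins of Itpr1 passed as higher in cerebellum than in either other tissue, beside 71.9% of all bins against cortex and 35.3% against olfactory bulb.

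Within Itpr1 the rise was uneven. The largest difference from cortex was in the bin chr6:108300001-108400000, wholly inside the gene, where the levels were 0.665, 0.668 and 0.658 in cortex, 0.760 and 0.757 in the olfactory bulb and 0.823 and 0.810 in the cerebellum. The smallest was in the next bin, chr6:108400001-108500000, with 0.667, 0.658 and 0.654 in cortex, 0.682 and 0.652 in the olfactory bulb and 0.765 and 0.732 in the cerebellum. In the former the olfactory bulb lay between the other tissues, and in the latter its libraries lay on either side of those of cortex (adjusted p = 7.68e-07 and 0.754 against cortex, limma). The bin with the start of Itpr1 was the lowest of the gene in every tissue, at -0.114 ± 0.0032 (SD, n = 3) relative to the mean of the other 3 bins in cortex, -0.0873 ± 0.021 (n = 2) in olfactory bulb and -0.0962 ± 0.0094 (n = 2) in cerebellum.

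Foxp2 followed the same order of tissues. Its 5mC was 0.720, 0.711 and 0.677 in cortex, 0.747 and 0.737 in olfactory bulb, and 0.799 and 0.786 in cerebellum, with no overlap. The difference between cerebellum and cortex was 0.69 ± 0.12 (SE, adjusted p = 1.14e-06) and that between cerebellum and olfactory bulb 0.41 ± 0.13 (adjusted p = 0.0113, limma). The latter no longer passed without olfactory bulb replicate 1 or 2 or cerebellum replicate 1 (adjusted p up to 0.146). The gap between olfactory bulb and cortex (0.28 ± 0.12) did not pass (adjusted p = 0.0565). All 6 bins passed as higher in cerebellum than in cortex, beside 71.9% of all bins. With libraries centred, the sign turned in 1 of the 6. The largest difference in level was in the bin with the start of the gene (chr6:14900001-15000000), where cortex had 0.660, 0.636 and 0.594, olfactory bulb 0.742 and 0.699, and cerebellum 0.765 and 0.760. It was smallest in chr6:15300001-15400000, with 0.744, 0.729 and 0.707 in cortex, 0.732 and 0.741 in the olfactory bulb and 0.788 and 0.761 in the cerebellum. Relative to the rest of the gene, the first bin of Foxp2 stood at -0.0872 ± 0.014 (SD, n = 3) in cortex, where it was lowest, at -0.0259 ± 0.027 in the olfactory bulb and at -0.0358 ± 0.0067 in the cerebellum (n = 2 each).

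Rora did not follow this order. Its 5mC was 0.646, 0.650 and 0.623 in cortex, 0.687 and 0.677 in olfactory bulb, and 0.656 and 0.629 in cerebellum. The cerebellum overlapped cortex and lay below olfactory bulb. The difference from cortex was 0.02 ± 0.11 (SE, adjusted p = 0.896) and that from olfactory bulb -0.25 ± 0.12 (adjusted p = 0.126), so neither passed (limma). Relative to the other genes the level of Rora was low: with libraries centred it differed by -0.32 from cortex (adjusted p = 0.00253) and by -0.39 from olfactory bulb (adjusted p = 0.00193). The centred levels of all 8 bins were lower in cerebellum than in cortex, 7 of them past the threshold, where 24.3% of all bins passed as lower.

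The bin of Rora with the lowest cerebellum value relative to cortex was chr9:69000001-69100000, inside the gene. Cortex had 0.704, 0.715 and 0.705 there, olfactory bulb 0.735 and 0.733, and cerebellum 0.651 and 0.650. The libraries of cerebellum lay below all others (adjusted p = 0.0021 against cortex and 9.05e-05 against olfactory bulb, limma). It was the only bin of the 25 that passed as lower than cortex. In the bin chr9:69200001-69300000, at the other end of the range, cortex had 0.612, 0.600 and 0.578, olfactory bulb 0.674 and 0.653, and cerebellum 0.658 and 0.622 (adjusted p = 0.032 against cortex). The bins of Rora were also more alike in cerebellum, where they spanned 0.0593, than in olfactory bulb (0.0899) or cortex (0.111), a difference that was not tested.

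The 4 genes on 1 or 2 bins follow. Calb1 had 0.674, 0.692 and 0.639 in cortex, 0.732 and 0.736 in the olfactory bulb and 0.758 and 0.727 in the cerebellum. Car8 had 0.743, 0.736 and 0.704 in cortex, 0.777 and 0.773 in the olfactory bulb and 0.805 and 0.777 in the cerebellum. In both, cortex lay below the other tissues, and olfactory bulb and cerebellum overlapped (adjusted p = 0.761 and 0.448, limma). Slc1a6 had 0.674, 0.677 and 0.656 in cortex, 0.695 and 0.679 in the olfactory bulb and 0.723 and 0.715 in the cerebellum, and its cerebellum and cortex differed by 0.34 ± 0.11 (SE, adjusted p = 0.00886). The rise came from the bin with the start of Slc1a6 (0.561 in cortex and 0.651 in cerebellum), of which the gene took up 19.5%. The other bin stood at 0.777 and 0.787 (adjusted p = 0.532, limma). Pcp2 was the lowest of the 7 in every tissue, with 0.586, 0.556 and 0.540 in cortex, 0.638 and 0.633 in the olfactory bulb and 0.625 and 0.587 in the cerebellum. For Pcp2 the olfactory bulb was highest, and the cerebellum lay between (adjusted p = 0.0392 against cortex and 0.316 against olfactory bulb). The difference of Pcp2 from cortex was 0.27, ran from 0.154 to 0.386 with 1 library left out, and no longer passed in 5 of these 7 fits (without cortex replicate 2 or 3, olfactory bulb replicate 1 or 2 or cerebellum replicate 1, adjusted p up to 0.439). That of Slc1a6 no longer passed without cerebellum replicate 1 (adjusted p = 0.0977).

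A comparison of each gene with its own flanks takes out what the region or the library shares. Over all genes the median of this difference was -0.0148 in cortex, -0.0121 in the olfactory bulb and -0.0116 in the cerebellum. By this measure 3 of the 7 genes were higher in cerebellum than in cortex (Itpr1, Car8 and Foxp2) and 1 was lower (Rora), beside 11.7% and 11.2% of all genes (limma, adjusted p under 0.05). The median difference of the 7 was 0.0254 and that of all genes 0.0002. All 4 calls were lost when the median over bins replaced the mean, with an adjusted p of 0.0871 for Itpr1, 0.0610 for Rora, 0.643 for Foxp2 and 0.816 for Car8. Against olfactory bulb, Itpr1 and Car8 were higher and Rora lower, beside 9.94% and 10.9%. Between olfactory bulb and cortex none of the 7 passed as higher (3.27% of all genes) or lower (2.57%), with 2 higher and 0 lower at an unadjusted p under 0.05.

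Itpr1 lay below its flanks in cortex, by -0.0494, -0.0473 and -0.0474, and in olfactory bulb, by -0.0243 and -0.0382, and above them in cerebellum, by 0.0169 and 0.0084. The sign of the difference thus turned in the cerebellum. The shift from cortex was 0.0607 ± 0.0098 (SE, adjusted p = 0.00285) and the shift from olfactory bulb 0.0439 ± 0.011 (adjusted p = 0.0188, limma), the latter lost without olfactory bulb replicate 2, cerebellum replicate 1 or cerebellum replicate 2 (adjusted p up to 0.130). Rora lay below its flanks in every library: -0.0558, -0.0496 and -0.0457 in cortex, -0.0375 and -0.0319 in olfactory bulb, and -0.0911 and -0.0979 in cerebellum. Its gap was widest in cerebellum, with a difference of -0.0442 ± 0.0096 (SE) from cortex (adjusted p = 0.0115) and of -0.0598 ± 0.010 from olfactory bulb (adjusted p = 0.00445). The gap to cortex no longer passed without either library of cerebellum (adjusted p up to 0.109), and the gap to olfactory bulb still passed with each of the 7 libraries left out in turn.

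Against the upstream side alone, Itpr1 stayed below it in every tissue. The gap was -0.0727 ± 0.0084 (SD) in cortex, -0.0637 ± 0.0093 in the olfactory bulb and -0.0098 ± 0.0086 in the cerebellum. Against its downstream side alone, Itpr1 stood at -0.0234 ± 0.0061, 0.0012 ± 0.010 and 0.0351 ± 0.0035. The 2 sides of Rora differed as well. Upstream of Rora the flank stood at 0.740 ± 0.015 (SD) in cortex, 0.780 ± 0.0012 in the olfactory bulb and 0.789 ± 0.013 in the cerebellum. Downstream of it the flank stood at 0.640 ± 0.023, 0.654 ± 0.020 and 0.685 ± 0.016. Against the downstream side, the gene was level in cortex (-0.0002 ± 0.0094), higher in olfactory bulb (0.0282 ± 0.014) and lower in cerebellum (-0.0425 ± 0.0029).

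Foxp2 was below its flanks by -0.0287, -0.0391 and -0.0433 in cortex and by -0.0207 and -0.0322 in olfactory bulb, and close to them in cerebellum, at -0.0021 and 0.0019. The shift from cortex was 0.0369 ± 0.010 (SE, adjusted p = 0.0283) and was lost without cortex replicate 2 or 3 or either library of cerebellum (adjusted p up to 0.172), and with flanks of 1 Mb. Slc1a6 moved by 0.0254 ± 0.010 (adjusted p = 0.098), and its 2 libraries of cerebellum, at 0.0060 and 0.0092, were the only ones above the flanks. Calb1 did not separate the tissues by this measure (-0.0431 ± 0.015 in cortex, -0.0334 ± 0.0027 in the olfactory bulb and -0.0341 ± 0.0063 in the cerebellum). Pcp2 was the farthest below its flanks, at -0.128 ± 0.017 in cortex, -0.0868 ± 0.0053 in the olfactory bulb and -0.112 ± 0.017 in the cerebellum, and no pair of tissues passed.

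**Figure D2:**
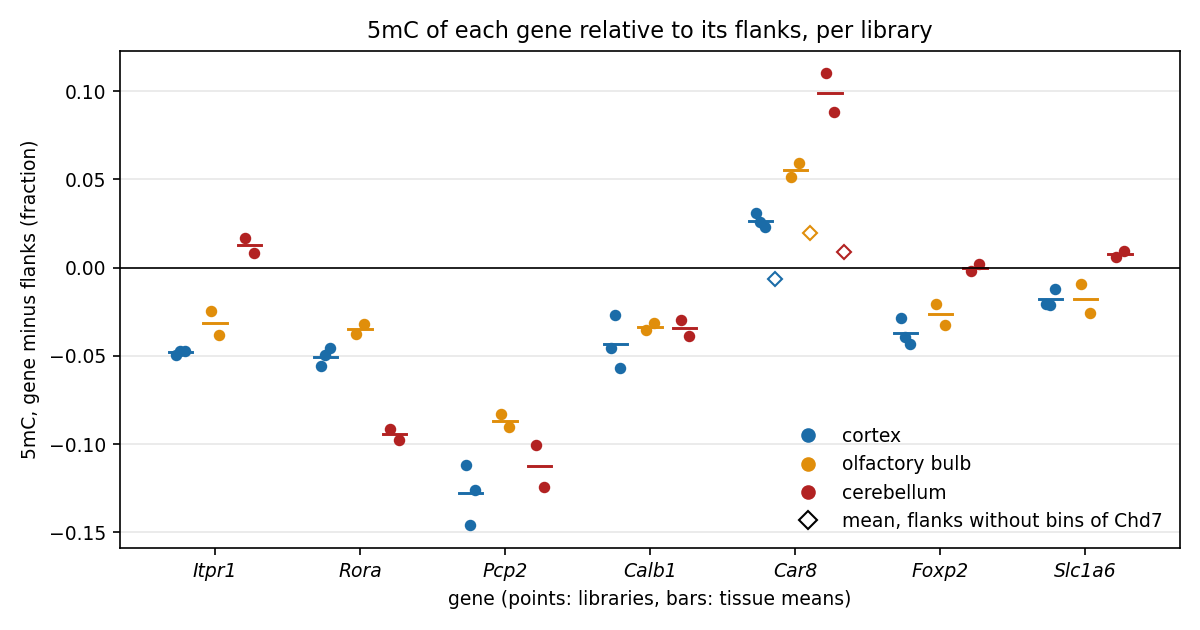
5mC of each gene minus 5mC of its flanks (fraction), 1 filled point per library, bars at tissue means and a line at 0, with open diamonds for the means of Car8 when the bins of Chd7 are left out of its flanks. Itpr1 crosses 0 only in cerebellum and Rora falls farthest in cerebellum, while the high values of Car8 shrink to the diamonds (0.0091 in cerebellum).

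The value of Car8 rested on a neighbour. Car8 was above its flanks by 0.0307, 0.0261 and 0.0229 in cortex, 0.0511 and 0.0595 in olfactory bulb, and 0.110 and 0.0882 in cerebellum, a shift of 0.0725 ± 0.011 (SE) from cortex (adjusted p = 0.00173). The bin at the far end of its upstream flank, chr4:8700001-8800000, had a 5mC of 0.189 ± 0.0035 (SD, n = 2) in cerebellum, 0.609 ± 0.016 (n = 3) in cortex and 0.583 ± 0.0026 (n = 2) in olfactory bulb. That bin lies in Chd7 (chr4:8690406-8867659, plus strand), which encodes a chromatin remodelling enzyme and was looked up after its values were seen. Without the bins that Chd7 overlaps, Car8 stood at -0.0062 ± 0.0047 in cortex, 0.0196 ± 0.0034 in the olfactory bulb and 0.0091 ± 0.013 in the cerebellum relative to its flanks. The shift was then 0.0153 ± 0.010 from cortex (adjusted p = 0.311) and -0.0104 ± 0.011 from olfactory bulb (adjusted p = 0.549), so neither call held.

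**Figure D3:**
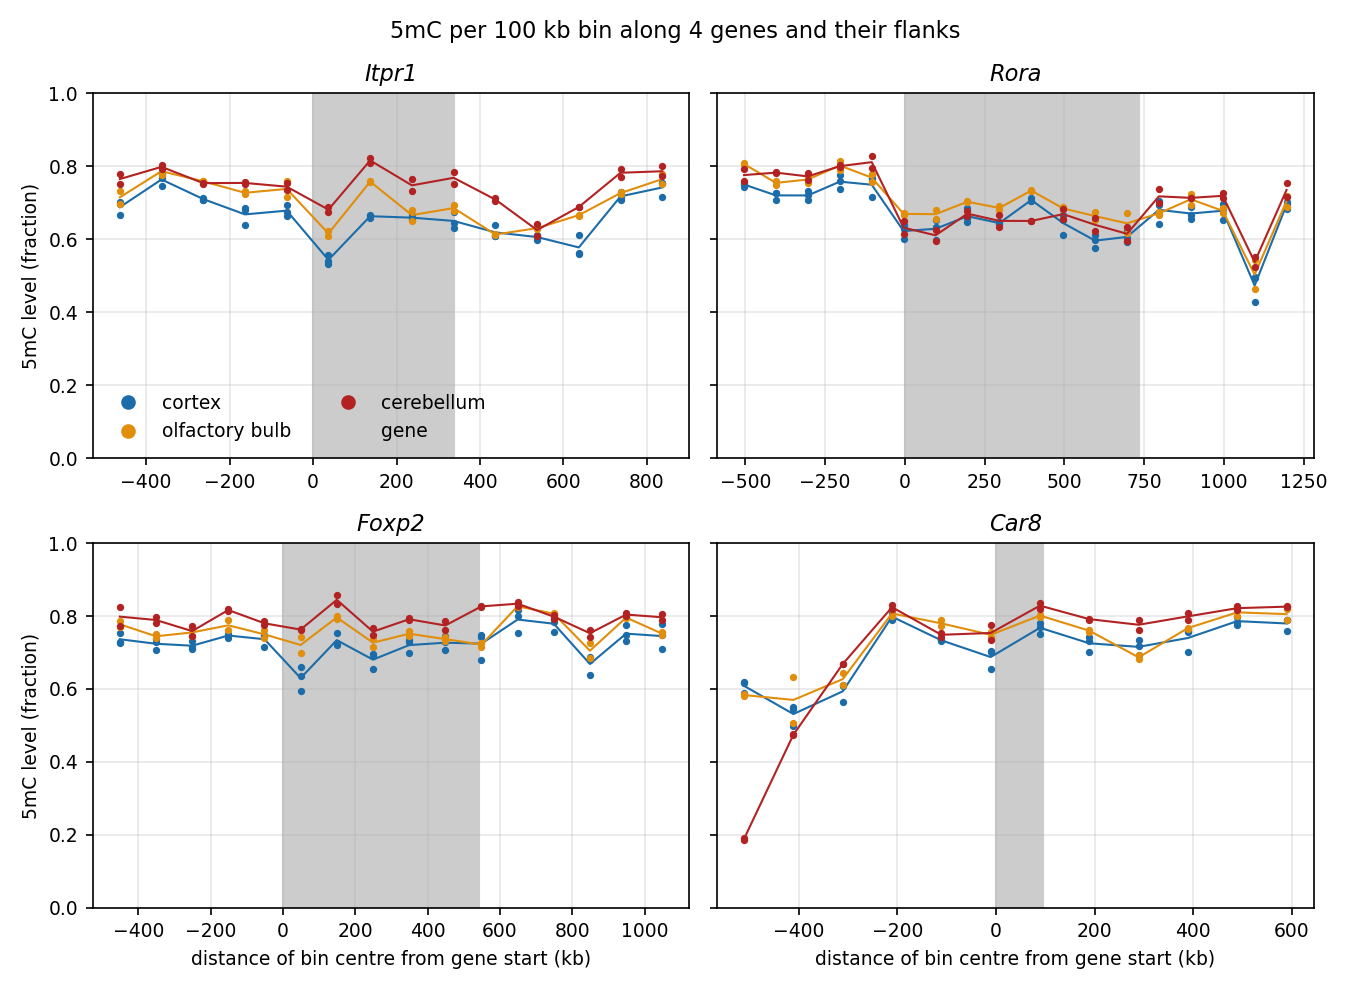
5mC level (fraction) of each 100 kb bin against the distance of its centre from the gene start (kb, in the direction of transcription) for Itpr1, Rora, Foxp2 and Car8, with points for libraries, lines through tissue means and the gene shaded. The cerebellum runs above cortex over Itpr1 and Foxp2 and along it over Rora, and drops to 0.189 at the far upstream end beside Car8.

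The 5hmC level was lower in cerebellum than in cortex in 9 of the 9 bins of these genes and higher in none (limma, adjusted p under 0.05), beside 97.6% of all bins lower and 0.426% higher. Against olfactory bulb, 7 of the 9 were lower and none higher, beside 91.8% and 1.20%. Between olfactory bulb and cortex, 7 were lower in olfactory bulb and none higher, beside 67.7% and 3.25%. In each pair no further bin was higher at an unadjusted p under 0.05. The fall is thus shared by nearly the whole genome, and how far each gene fell was what set the genes apart. The median over all bins of each bin's own ratio was 55.8% for cerebellum to cortex and 64.4% for cerebellum to olfactory bulb.

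Foxp2 kept the smallest share of its 5hmC, while Itpr1 lost more in level (-0.105 against -0.0970 from cortex to cerebellum). The 5hmC of Foxp2 was 0.146, 0.160 and 0.140 in cortex, 0.124, 0.136 and 0.129 in olfactory bulb and 0.0498, 0.0525 and 0.0531 in cerebellum. The level in cerebellum was 34.8% of that in cortex, a share below which only 8.83% of all bins lay, and 39.8% of that in olfactory bulb. The bin chr6:15000001-16000000 changed by -1.82 on the log2 ratio scale from cortex to cerebellum and the bin chr6:14000001-15000000 by -1.52, and with libraries centred by -0.77 (adjusted p = 4.39e-10) and -0.48 (adjusted p = 6.96e-06).

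Itpr1 had the highest 5hmC of the 7 in cortex, with 0.211, 0.223 and 0.202, and held 0.179, 0.187 and 0.178 in olfactory bulb and 0.108, 0.105 and 0.107 in cerebellum. The cerebellum kept 50.4% of the level in cortex, a share below which 39.4% of all bins lay. With libraries centred the bin was lower by a small amount (-0.13, limma, adjusted p = 3.02e-04), and 40.1% of all bins passed as lower. Calb1, with 0.166, 0.174 and 0.156 in cortex, 0.146, 0.154 and 0.143 in olfactory bulb and 0.0858, 0.0913 and 0.0951 in cerebellum, fell as the genome did (55.0% of cortex). Its centred difference was 0.06 (adjusted p = 0.103).

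The 1 Mb bins of Rora and Car8 kept most of their 5hmC. Rora had 0.194, 0.206 and 0.189 in cortex, 0.168, 0.179 and 0.169 in olfactory bulb and 0.159, 0.157 and 0.163 in cerebellum. Car8 had 0.196, 0.211 and 0.187 in cortex, 0.192, 0.197 and 0.188 in olfactory bulb and 0.164, 0.163 and 0.167 in cerebellum. These shares of the level in cortex, 81.4% and 83.2%, were higher than in 92.8% and 93.7% of all bins, and both genes stood above the other 5 in cerebellum. The fall of both against cortex still passed (log2 ratio differences of -0.30 and -0.43 in the bins of Rora and -0.32 in that of Car8). With libraries centred the differences were 0.75 and 0.61 for Rora and 0.72 for Car8, all positive (adjusted p between 6.09e-10 and 2.71e-09). The 1 Mb bin of Car8 also holds the whole of Chd7, and the 2 genes cannot be told apart at this bin size. For Rora, the bin from the start of the gene did not differ between cerebellum and olfactory bulb by the test (adjusted p = 0.428), and the other bin was lower (adjusted p = 0.0051).

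Pcp2 had 0.125, 0.129 and 0.118 in cortex, 0.0877, 0.0967 and 0.0912 in olfactory bulb and 0.0790, 0.0809 and 0.0835 in cerebellum, the lowest of the 7 outside the cerebellum. Slc1a6 had 0.145, 0.162 and 0.145 in cortex, 0.117, 0.125 and 0.113 in olfactory bulb and 0.116, 0.105 and 0.110 in cerebellum. They kept 65.4% and 73.2% of the level in cortex, and Slc1a6 overlapped between cerebellum and olfactory bulb (adjusted p = 0.124). For both genes the cerebellum was nearer to olfactory bulb than the genome was (88.3% and 93.2% of its level).

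**Figure D4:**
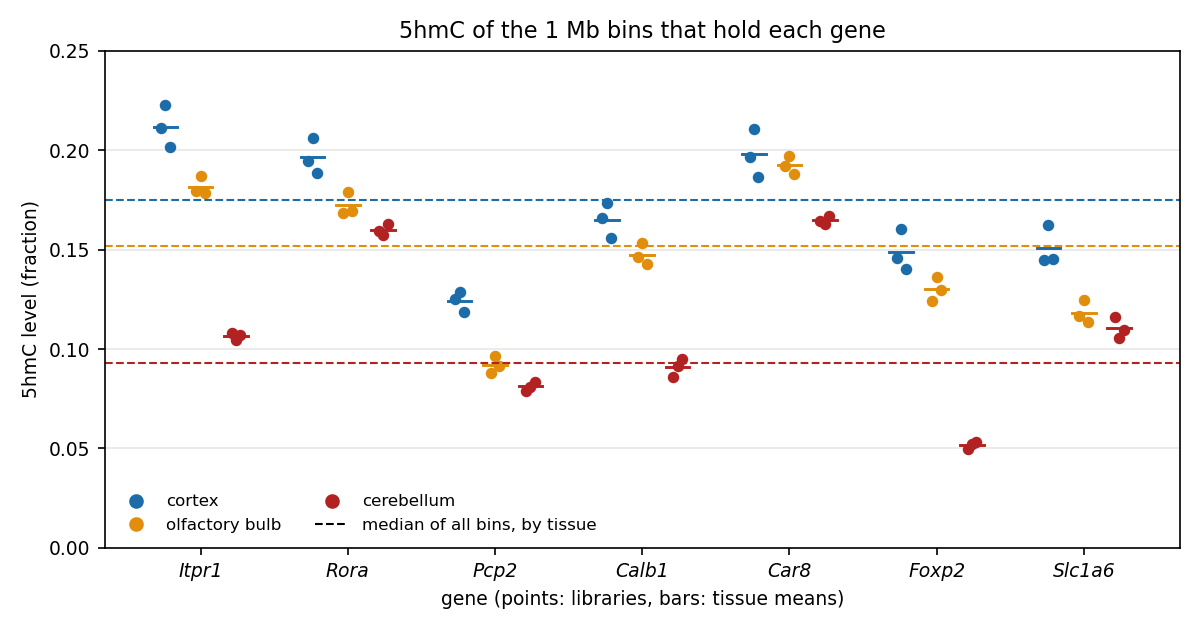
5hmC level (fraction) of the 1 Mb bins that hold each gene, 1 point per library, with bars at tissue means and dashed lines at the median of all bins in each tissue (0.175 in cortex, 0.152 in the olfactory bulb and 0.0931 in the cerebellum). Rora and Car8 stay far above the cerebellar line, Foxp2 falls below it, and Itpr1 lies near it.

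Flanking 1 Mb bins existed for 5 of the genes. For Itpr1 the gene's bin exceeded its flanks in every library, by 0.0661 ± 0.0036 (SD) in cortex, 0.0568 ± 0.0033 in the olfactory bulb and 0.0282 ± 0.0026 in the cerebellum (n = 3 each). For Car8 the excess went the other way, with 0.0485 ± 0.0057, 0.0636 ± 0.0070 and 0.124 ± 0.0028. In both genes the 3 tissues did not overlap in any pair (exact permutation test, two-sided, p = 0.1, which is the lower limit for 3 libraries against 3). The flank of Car8 was a single bin that fell to 27.2% of cortex. With flanks of 1 Mb, the excess of Car8 in cerebellum over that in cortex was 0.0284 in place of 0.0755. For Pcp2, Calb1 and Slc1a6, the excess in cerebellum overlapped that in cortex (exact permutation test, p = 0.6, 0.8 and 0.6). Between cerebellum and olfactory bulb it did not overlap, with differences of 0.0107 in Pcp2, -0.0219 in Calb1 and 0.0078 in Slc1a6 (exact permutation test, p = 0.1 each).

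**Figure D5:**
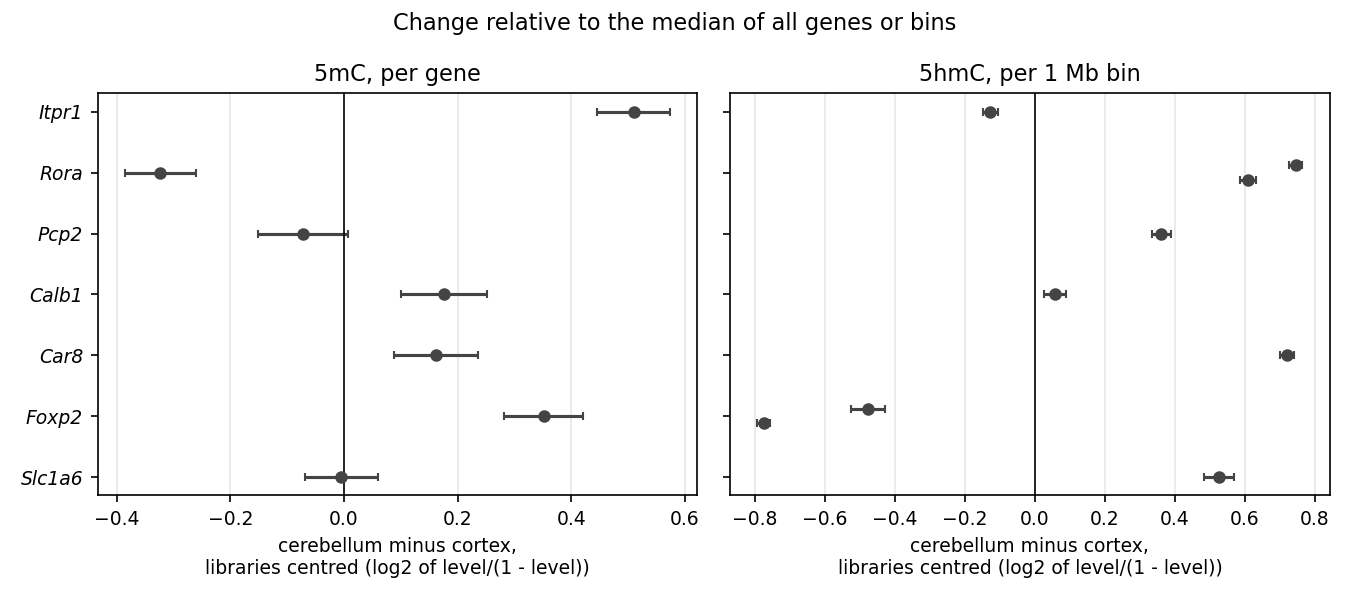
Difference between cerebellum and cortex, with each library centred on its median, in 5mC per gene (left) and 5hmC per 1 Mb bin (right), on the scale of log2(level/(1 - level)), with bars of 1 SE and 2 points for Rora and Foxp2 in 5hmC. Itpr1 and Foxp2 lie to the right in 5mC (0.51 and 0.35) and to the left in 5hmC, and Rora lies to the left in 5mC (-0.32) and to the right in 5hmC.

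The sum of both marks was taken over the same 1 Mb bins. For Itpr1 it was 0.850 ± 0.014 in cortex, 0.865 ± 0.0068 in the olfactory bulb and 0.839 ± 0.012 in the cerebellum, where the error is the root of the summed squared SDs of both assays. The share of this sum that was 5hmC went from 24.9% in cortex to 12.7% in cerebellum in Itpr1, and from 17.0% to 6.1% in Foxp2. In Rora it went from 22.7% to 18.6%, with a sum of 0.866 ± 0.019 in cortex and 0.861 ± 0.016 in cerebellum. Over all bins, mean 5hmC fell from 0.163 in cortex to 0.0949 in cerebellum while mean 5mC rose from 0.677 to 0.731. A fall in this share was thus general. Between cerebellum and cortex the sum differed by less than 2 times its error in 6 of the 7 genes. Car8 was the exception, with a difference of -0.0710 ± 0.024, and over its 1 Mb the 5mC in cerebellum was 0.642 with the bins of Chd7 and 0.759 without them. Against olfactory bulb the sum differed by more than 2 times its error in Car8 (-0.0928 ± 0.015) and Foxp2 (-0.0423 ± 0.012), and between olfactory bulb and cortex in Calb1 (0.0370 ± 0.015). Against olfactory bulb the sum was also lower in Itpr1 (-0.0259 ± 0.014), Pcp2 (-0.0240 ± 0.013), Calb1 (-0.0342 ± 0.019), Rora (-0.0160 ± 0.019) and Slc1a6 (-0.0027 ± 0.013). Each of these differed by less than 2 times its error. The error is built from SDs of libraries and not from SEs of means, so a smaller difference does not show equal sums. The assays were run on different libraries, and the sum was not tested.

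Other genes of Purkinje cells were divided as well. Of 20 further genes on a list chosen with earlier results of these data known, 3 were higher and 6 lower in cerebellum than in cortex relative to their flanks. Of all genes, 11.7% were higher and 11.2% lower, so the count of higher genes lay near the general share. The median difference of the 20 was -0.0002, beside 0.0002 over all genes. The lowest were Plcb4 (a phospholipase that makes the ligand of the Itpr1 receptor) with -0.161, Inpp5a (a phosphatase that breaks this ligand down) with -0.113 and Cacna1a (the P/Q-type calcium channel) with -0.108. The highest were Gnaq (the G protein that activates this phospholipase family) with 0.0473, Stim1 (a calcium sensor of the endoplasmic reticulum) with 0.0443 and Skor2 (a transcriptional corepressor) with 0.0423. Among the 7 genes, Rora was lower like the former and Itpr1 higher like the latter, and the shifts of Plcb4, Inpp5a and Cacna1a were each larger in size than that of Rora (-0.0442).

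Lists for other cell types of the cerebellum and forebrain, also chosen with earlier results of these data known, gave a scale for these values. Of the 12 granule neuron genes, the median difference relative to the flanks between cerebellum and cortex was -0.118, larger in size than the difference of any of the 7 Purkinje cell genes. Of all genes 11.7% were higher and 11.2% lower in this measure and pair. Among genes of Bergmann glia and astrocytes 2 of 10 were higher and 0 lower, among those of oligodendrocytes (10 genes, 9 distinct levels) 1 and 1, and among those of olfactory bulb interneurons 2 and 2. Genes of cortical excitatory neurons had 5 of 10 higher and 1 lower. What part these cell types had in the levels of the 7 genes was not tested.

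For the genes with 4 or more bins, the genes most alike in 5mC were sought by the Euclidean distance over the 7 oxBS-seq libraries among 736 genes of that size outside their regions. Those nearest to Itpr1 were Fmn2, Csmd2 and Erc2, with distances from 0.0212 to 0.0253, against a median of 0.133 over all candidates. Those nearest to Foxp2 were Slc7a11, A830018L16Rik and Thsd7b, from 0.0132 to 0.0169 (median 0.135). Rora had no gene as near, with Zfp536, Megf11 and Cacna1e at 0.0373 to 0.0446 (median 0.186). Of these, Zfp536 had levels of 0.622, 0.680 and 0.650 in cortex, olfactory bulb and cerebellum, and like Rora it was highest in olfactory bulb.

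Single comparisons could not pass by exact tests alone. With 2 libraries against 3, a two-sided exact permutation test cannot give less than p = 0.1, and with 2 against 2 not less than 0.333. In Itpr1, where no pair of tissues overlapped in 5mC, the exact p was 0.1 or 0.333. Without overlap it could also be larger, as in Pcp2 between cerebellum and cortex (0.2 in the same test). The calls rest on the spread that limma shares across genes or bins. For 5hmC without centring this sharing was complete, with the same SE of 0.073 in every bin and pair, and with libraries centred the SE of the 9 bins ran from 0.018 to 0.050.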

How the data were processed

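oxBS-seq (5mC) and TAB-seq (5hmC) libraries of cortex, olfactory bulb and cerebellum were used, 16 in all. The authors aligned reads with Bismark to mm10 and deposited a fraction per bin, the share of CpG cytosines carrying the mark, in bins of 100 kb for 5mC and 1 Mb for 5hmC. How sites were combined within a bin is not given in the sources used here, and since the depth is unknown no counting interval was set. Bins at 0 or 1 in any library were left out, which kept 25664 of 26327 and 2581 of 2641. An alternative kept all of them, limited to 0.001 to 0.999. Genes were placed by GENCODE M21, and the level of a gene is the mean of its bins.

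Levels were tested as log2(level/(1 - level)) and gene minus flanks as fractions, with limma 3.58.1 (R 4.3.3) across all bins or genes and Benjamini-Hochberg adjustment. Python 3.11.15 was used for tables. P-values measure the spread between libraries. Replicates of a tissue came from independent mice, and libraries of different tissues may share a mouse, which the fits do not take into account. The methods were tested on simulated data. For limma these data held independent noise of the same spread in every bin or gene, without shifts of whole libraries or shared mice. They cannot show how such shifts or shared mice affect the calls. The members and lists were chosen with earlier results of these data known. Named were, for genes of 4 or more bins, the bins of lowest and highest difference between cerebellum and cortex, the 3 most alike genes, and the 3 lowest and 3 highest genes past the threshold on the list of other Purkinje cell genes. Chd7 was named after its values were seen. Alternatives changed the scale, centring, filter, bins, flanks, block and libraries.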

Additional observations from a re-analysis of the deposited data

Results flagged for a closer look

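For 4 of the 7 genes the difference between tissues in 5mC relative to the flanks was itself tested and passed (limma, adjusted p under 0.05). Against cortex 3 were higher and 1 lower in cerebellum, beside 11.7% and 11.2% of all genes. Against olfactory bulb 2 were higher and 1 lower, beside 9.94% and 10.9%. Itpr1 was higher in cerebellum by 0.0607 than in cortex and by 0.0439 than in olfactory bulb. Rora differed by -0.0442 and -0.0598 in the same pairs. Car8 was higher by 0.0725 and 0.0438, and neither value passed without the bins of Chd7 in its flanks. Foxp2 was higher than in cortex by 0.0369, which no longer passed without cortex replicate 2 or 3, with flanks of 1 Mb or with either replicate block. As given above, the calls of Itpr1 against olfactory bulb and of Rora against cortex also depended on single libraries. All 4 calls against cortex were lost with the median over bins. With 2 or 3 libraries per tissue, no single library was tested for standing apart.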

How the results depend on the processing

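Centring each library on its median changed the most. Of the 100 kb bins, 7 in place of 17 were then higher in cerebellum than in cortex and 8 in place of 1 lower, 9 in place of 2 were lower than in olfactory bulb, and 4 in place of 12 were higher in olfactory bulb than in cortex. Of all bins, 25.7% were then higher and 24.3% lower than in cortex, 21.3% lower than in olfactory bulb, and 8.81% higher in olfactory bulb than in cortex. Of the genes, 2 in place of 6 were higher and 1 in place of 0 lower in cerebellum than in cortex, 2 in place of 0 were lower than in olfactory bulb, and 0 in place of 4 were higher in olfactory bulb than in cortex, beside 15.3%, 26.5%, 21.9% and 3.56% of all genes. Of the 5hmC bins, 5 were higher and 3 lower in cerebellum than in cortex, again 5 and 3 against olfactory bulb, and 2 and 2 between olfactory bulb and cortex, beside 50.3% and 40.1%, 50.9% and 39.1%, and 36.2% and 33.0% of all bins. In 5mC the sign turned between cerebellum and cortex in 10 of the 25 bins, 6 of them in Rora, and in 3 of the 7 genes. Among the named values these were Rora (-0.32), Pcp2 (-0.0721), Slc1a6 (-0.0044), the bin of Rora from 69200001 (-0.14) and the bin of Foxp2 from 15300001 (-0.0436). Signs turned in 5hmC between cerebellum and cortex for Rora (0.75 and 0.61), Car8 (0.72), Slc1a6 (0.53), Pcp2 (0.36) and Calb1 (0.0571), against olfactory bulb for Rora (0.74 and 0.59), Slc1a6 (0.69), Pcp2 (0.61), Car8 (0.53) and Calb1 (0.0080), and between olfactory bulb and cortex for Car8 (0.19), Foxp2 (0.10), Calb1 (0.0491) and Rora (0.0025 and 0.0148). Centring takes out the shift of all bins by its construction.

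Other settings moved counts of calls. With 5mC averaged into 1 Mb bins, 7 of 9 bins were higher in cerebellum than in cortex, and 3 were higher and 1 lower than in olfactory bulb. With all bins limited, 1 bin was lower than in olfactory bulb. With levels as fractions, 1 gene was higher in cerebellum than in olfactory bulb, and Foxp2 no longer passed (limma, adjusted p = 0.0521). With only the bins inside a gene, which 3 genes have, 2 genes were higher than in cortex and 1 lower than in olfactory bulb, and relative to the flanks 1 was higher than in olfactory bulb. With the median over bins, relative to the flanks, 0 genes were higher and 0 lower than in cortex and 1 was higher than in olfactory bulb, with Car8 at -0.0033. Without the bins of Chd7, a setting chosen after seeing the data, 1 was higher than in olfactory bulb, with Car8 at -0.0104. With flanks of 1 Mb the 5hmC excess over the flanks differed by 0.0092 in Calb1 and 0.0284 in Car8 between cerebellum and cortex, by -0.0082 and 0.0238 against olfactory bulb, and by 0.0046 in Car8 between olfactory bulb and cortex. The shares of all bins or genes under these settings are not given here, so these counts cannot be set against the genome. The cause of these changes was not tested.

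Leaving out 1 library in turn gave 13 to 17 bins higher in cerebellum than in cortex, 4 to 11 higher (4 without cerebellum replicate 1) and 1 to 2 lower (1 without olfactory bulb replicate 1) than in olfactory bulb, and 5 to 13 higher in olfactory bulb than in cortex (5 and 7 without olfactory bulb replicates 1 and 2). It gave 4 to 6 genes higher in cerebellum than in cortex, 0 to 2 higher than in olfactory bulb (0 without cerebellum replicate 1) and 0 to 1 lower (1 without cortex replicate 3), and 0 to 4 higher in olfactory bulb than in cortex (0 and 1 without olfactory bulb replicates 1 and 2). Relative to the flanks it gave 2 to 3 higher and 0 to 1 lower than in cortex (0 without either library of cerebellum), and 0 to 2 higher than in olfactory bulb (0 without olfactory bulb replicate 2 or either library of cerebellum). A lone remaining library was assumed to vary like the other tissues. Shares over all bins and genes are not given for these fits, so a change in the members cannot be told from a change in the whole table.

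Whether replicate numbers pair the samples of different tissues was not settled. The correlation of deviations between libraries of the same number ran from -0.0932 to 0.0458 in 5mC and from -0.191 to 0.429 in 5hmC. In 5hmC it was positive between cerebellum and olfactory bulb (0.0566 to 0.429) and negative between cerebellum and cortex (-0.191 to -0.0279). With the numbers of the labels, 5 of 9 libraries of 5hmC and 1 of 6 of 5mC correlated best with their own number. With the replicate block by the numbers of the labels, 15 bins were higher in cerebellum than in cortex, and relative to the flanks Foxp2 no longer passed (0.0338). This block also ended the calls of Pcp2 between cerebellum and cortex (0.21) and of Car8 between olfactory bulb and cortex (0.28) in 5mC per gene. With the replicate block by the numbers of the library names, 0 genes in place of 2 were higher than in olfactory bulb relative to the flanks, and Foxp2 no longer passed against cortex (0.0375). Depth was unknown, so low and well covered bins could not be set apart.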
